A study of Mus musculus with 2 samples.

Results

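The genes described here are 9 genes of naive and recirculating T cells: Ccr7, Lef1, Tcf7, Il7r, Klf2, S1pr1, Foxo1, Satb1 and Bach2. They were chosen by symbol, as known genes of quiescence, lymph node homing and egress, with earlier results of these data known. All 9 were found among the 24346 symbols of both tables. Their RNA had been sequenced in splenic CD4+ T cells of mice, isolated on day 14, in 2 libraries. One came from HFD-MI animals that had received probucol, an antioxidant that lowers blood cholesterol, and the other from HFD-MI animals whose label reads untreated. Both groups thus share the HFD-MI state, and no animals without it were analysed here. The labels do not spell out HFD-MI or HypoE, a word in both file headers, and no genotype, strain, age, dose or number of animals is given.

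A naive T cell circulates for a long time without dividing. It enters lymph nodes with the help of the chemokine receptor CCR7, and it leaves them through S1PR1, which senses sphingosine 1-phosphate in blood and lymph. KLF2 promotes transcription of S1pr1, and FOXO1 promotes that of Klf2, Il7r and Ccr7. The interleukin 7 receptor keeps the resting cell alive, and TCF1 (gene Tcf7), LEF1, SATB1 and BACH2 are transcription factors or chromatin organisers of the undifferentiated state. Most of these genes are switched down as a T cell becomes an effector.

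Of the 9 genes, 8 had a lower level in the probucol library and 1, Bach2, had a higher level. None of the 9 differed by 2-fold. Il7r and Klf2 had the lowest ratios, each 1.27-fold lower with probucol, and the median log2 ratio (probucol over untreated, on FPKM + 1) was -0.15. FPKM is a count of sequenced fragments corrected for transcript length and for library size, so that levels of different genes can be set side by side. Each group has 1 library, so the spread between replicates is unknown and no p-value is given. The intervals below are approximate 95% counting intervals from estimated fragment numbers and cover counting error only. PCR copies are counted as fragments, so the intervals may be too narrow even for that error. Variation from one animal, sort or library preparation to the next is not in them.

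All 9 genes passed the minimum mean of 1 FPKM, as did 10663 genes in all. Among these 10663 genes, 47.3% were lower with probucol and 52.7% higher, with a median log2 ratio of 0.02. A difference of at least 2-fold was found for 1.98% in the lower direction and 1.62% in the higher, and one of at least 0.32 on the log2 scale (a fold of 5 to 4, the smaller limit below) for 14.1% and 17.8%. Among the 9 genes, 2 were lower by at least 0.32 (Il7r and Klf2) and 1 was higher by as much (Bach2). In so few genes, these counts are near the background shares. The 8 lower genes are abundant, and abundant genes were more often lower: at a mean of 50 FPKM or more, a limit set after the values were seen, 59.1% of 2291 genes were lower and 8.08% were lower by at least 0.32. The scatter plot of all genes compared shows the members within this cloud.

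**Figure D1:**
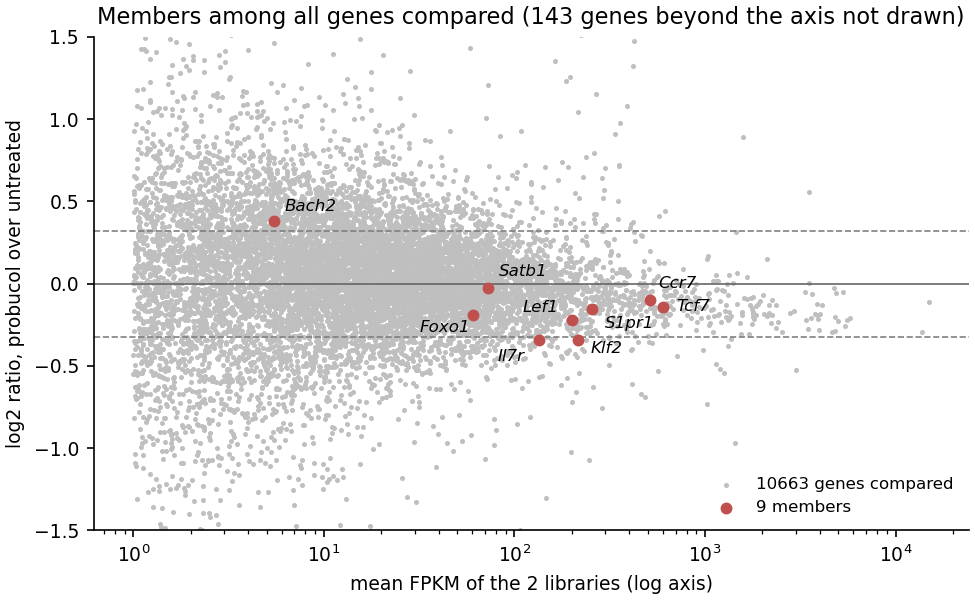
Log2 ratio of probucol over untreated (vertical, on FPKM + 1) against mean FPKM of the 2 libraries (horizontal, log axis) for 10663 genes in grey and the 9 members in red, with dashed lines at the smaller limit. The 8 abundant members lie below 0 and Bach2, the least abundant, lies above 0. The 143 genes beyond 1.5 on the log2 axis are not drawn.

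The libraries themselves were of similar size, with an estimated 1.04e+07 fragments in genes with probucol and 1.03e+07 untreated, but 14289 symbols were above 0 with probucol and 16876 untreated. T cell markers were abundant in both: Cd4 was at 334 FPKM in the probucol library and 284 FPKM in the untreated one, Cd3e at 478 and 494 FPKM, and the 7 T cell markers summed to 4959 and 5106 FPKM. B cell markers, of which 8 of 12 passed the minimum and 7 of those were higher with probucol, summed to 72.5 and 27.9 FPKM, with Pax5 at 0 in both. All 7 erythroid markers that passed were lower, with sums of 227 and 889 FPKM. Of 6 natural killer markers that passed, 4 were lower and 2 higher, with a median log2 ratio of -0.73. Among these, Klrd1 was at 1.22 and 6.22 FPKM and Gzma at 0.150 and 3.28 FPKM. Prf1, at 49.9 and 36.3 FPKM, made up most of the sums of all 8, 58.6 and 55.0 FPKM. Ncr1 and Klre1, below the minimum, were higher with probucol. Ncr1 was at 1.04 and 0.0795 FPKM, from an estimated 13 and 1 fragments, and Klre1 at 0.996 and 0.708 FPKM. The 2 CD8 genes summed to 16.1 and 19.9 FPKM, nearly all of it Cd8b1. Cd8b1 was at 15.9 and 19.6 FPKM and Cd8a at 0.139 and 0.276 FPKM. Neutrophil markers summed to 1077 and 960.4 FPKM and macrophage markers to 191 and 179.7 FPKM. Dendritic cell markers summed to 5.76 and 6.53 FPKM and platelet markers to 5.28 and 2.85 FPKM. Of 8 neutrophil markers that passed, 7 were higher with probucol, 2 of them at least 2-fold, and 1 was lower. S100a8, at 591 and 536 FPKM, made up most of their sums. Of 9 macrophage markers that passed, 7 were higher and 2 lower, with a median log2 ratio of 0.295. B cells also express Ccr7, Klf2, S1pr1, Foxo1 and Bach2, and naive CD8 T cells express most of the 9 genes. The part of these other cells in the results was not tested. In such bulk samples a smaller share of naive cells and less RNA of a gene per cell cannot be told apart.

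The levels of the 9 genes covered a wide range, and their order was the same in both libraries. Tcf7 stood highest, at 575 FPKM in the probucol library and 636 FPKM in the untreated one, followed by Ccr7, S1pr1, Klf2, Lef1, Il7r, Satb1, Foxo1 and, far lower, Bach2. All 36 pairs of genes were ordered alike in the 2 libraries. Each neighbour in this order was separated from the next by its counting interval, except Klf2 and Lef1 with probucol, whose levels differed by a factor of 1.02. Tcf7 and Ccr7 alone made up 29.6% and 25.6% of the summed FPKM of the 9 genes with probucol, and 29.0% and 24.4% untreated. The 9 genes together summed to 1945 FPKM in the probucol library and 2193 FPKM in the untreated one, a ratio of 0.887. As a multiple of the T cell marker sum, this was 0.392 with probucol and 0.429 untreated.

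**Figure D2:**
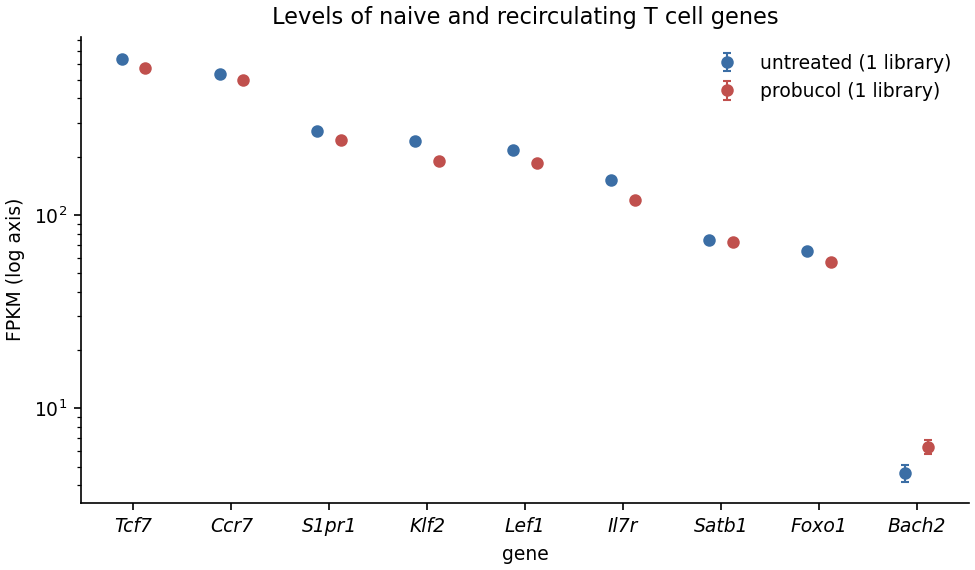
FPKM (vertical, log axis) of the 9 genes in the untreated library (blue) and the probucol library (red), with 95% counting intervals that are mostly smaller than the points. The order of the genes is the same in both libraries, and the red point is below the blue one for 8 genes and above it for Bach2.

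Ccr7 (chromosome 11, 99144196 to 99155077, minus strand, mm10) encodes the receptor that guides T cells into lymph nodes along the chemokines CCL19 and CCL21. It was at 498 FPKM in the probucol library and 535 FPKM in the untreated one. The ratio of the levels was 0.931, or 1.07-fold lower with probucol (1.04 to 1.11), so the libraries were close for this gene. Of 19 other homing genes 16 passed the minimum, 9 lower and 7 higher, where 47.3% of all genes compared were lower. Their median log2 ratio was -0.11. Fut7, a fucosyltransferase of leukocytes, was the 1 gene past the smaller limit, and past 2-fold, with 1.56 and 4.62 FPKM, 2.97-fold lower (1.91 to 4.75) from an estimated 28 and 82 fragments. The highest ratio was that of the integrin chain gene Itga4, 1.19 (1.10 to 1.29). The ligand genes Ccl19 and Ccl21a were listed at 0 in both libraries.

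Klf2 (chromosome 8, 72319033 to 72321656, plus strand) encodes the factor that drives egress and quiescence genes. It was at 190.1 FPKM in the probucol library and 242 FPKM in the untreated one, 1.27-fold lower with probucol (1.21 to 1.33). Its log2 ratio of -0.34 was among the lowest 12.9% of all genes compared. Because Klf2 and Il7r had the lowest ratios, the RefSeq windows before their starts (GRCm38, the assembly of mm10) were read. The Klf2 stretch lies at chr8:72318812-72319032 on the plus strand, in no annotated exon, and 71.5% of its 221 bases are G or C. The capitals mark TAAATTTA, the core of the motif of MEF2 factors, which are known activators of Klf2. This motif equals its own reverse complement and was looked for after the sequence had been read, and 0.502% of all 32851 promoter windows hold it in their 250 bases before the start.

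Klf2: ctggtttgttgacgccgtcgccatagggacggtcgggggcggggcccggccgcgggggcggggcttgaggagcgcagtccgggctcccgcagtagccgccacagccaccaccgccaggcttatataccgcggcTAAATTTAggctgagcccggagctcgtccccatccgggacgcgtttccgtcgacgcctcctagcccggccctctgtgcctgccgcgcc

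S1pr1 (chromosome 3, 115710433 to 115715072, minus strand), the egress receptor and a target of KLF2, was at 243 FPKM in the probucol library and 270.3 FPKM in the untreated one. It was thus 1.11-fold lower with probucol (1.08 to 1.15), a smaller difference than that of Klf2. Of 14 other sphingosine 1-phosphate and egress genes 10 passed the minimum, 3 lower and 7 higher, where 52.7% of all genes compared were higher. Their median log2 ratio was 0.13. S1pr4, a related receptor of lymphocytes, had the lowest ratio of them, at 67.3 and 78.1 FPKM, 1.16-fold lower (1.08 to 1.24). Cd69, whose product pulls S1PR1 from the cell surface and which is switched on when T cells are stimulated, had the highest, at 148 FPKM in the probucol library and 97.0 FPKM in the untreated one, 1.52-fold higher (1.42 to 1.63). The level of S1pr1 was accordingly 1.64 times that of Cd69 with probucol and 2.79 times untreated. Sphk2, a kinase that makes sphingosine 1-phosphate, named after its values were seen, was the other gene higher by at least 0.32, with 25.7 and 18.8 FPKM. Of 11 further KLF genes 5 passed the minimum (Klf3, Klf7 and Klf13, counted with the quiescence genes below, also passed, with ratios of 0.897, 1.06 and 0.960), and the 2 past the smaller limit were both lower: the erythroid factor Klf1, at 0.983 and 2.41 FPKM, and Klf6, named after its values were seen, at 55.5 and 71.5 FPKM. Klf11 had the highest ratio, 1.30 (1.02 to 1.67).

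Il7r (chromosome 15, 9505788 to 9530176, minus strand) encodes the receptor chain that binds interleukin 7. It was at 119 FPKM in the probucol library and 151 FPKM in the untreated one, 1.27-fold lower with probucol (1.22 to 1.33), with a log2 ratio of -0.35. Its ratio was among the lowest 12.8% of the genes compared. Rescaling both libraries to the same sum over T cell markers left Il7r and Klf2 at -0.30 each, and none of the 9 genes then was lower by 0.32. The window before its start holds ACTTCCTG, the reverse complement of CAGGAAGT, an ETS motif. It is shown because GABP, an ETS factor, is a known activator of Il7r. It lies 49 to 42 bases before the RefSeq start, which is inside the gene bounds given above, since these also span transcripts that start further upstream. It is printed in capitals with its flanks (chr15:9529908-9529935, minus strand, outside annotated exons). The motif, chosen after the sequence was read, is present in 2.69% of all windows on either strand. Among the members, 3 hold it: Il7r, Lef1 and Satb1, of which Satb1 had nearly equal levels in the libraries.

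Il7r: ttttgctcagACTTCCTGtttctggcac

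Gabpa, the gene of the DNA-binding GABP subunit, had a ratio of 0.876 (0.782 to 0.981) and was named after its values were seen. The partner genes of the receptor were close between the libraries and, unlike Il7r, not lower for the shared receptor chain and the kinases. Il2rg, the shared chain, was at 1513 and 1447 FPKM. The kinase genes Jak1 and Jak3 had ratios of 1.12 (1.09 to 1.15) and 1.11 (1.06 to 1.17), and the transcription factor genes Stat5a and Stat5b of 0.952 (0.861 to 1.05) and 0.930 (0.883 to 0.978). Bcl2, which restrains cell death and is sustained by interleukin 7 signals, was at 109 FPKM in the probucol library and 58.2 FPKM in the untreated one, 1.87-fold higher (1.79 to 1.96), so it stood on the other side of 0 from the receptor gene. Of 15 genes of this pathway 14 passed the minimum, 7 lower and 7 higher, where 47.3% of all genes compared were lower. Their median was -0.02. Lower by at least 0.32 were Pim1, a kinase induced by STAT5, at 126 and 176 FPKM, and Crlf2, named after its values were seen, at 9.68 and 12.6 FPKM.

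Foxo1 (chromosome 3, 52268336 to 52353221, plus strand), which encodes the regulator of several of these genes, was at 56.8 FPKM in the probucol library and 65.0 FPKM in the untreated one. It was 1.15-fold lower (1.10 to 1.19), with a log2 ratio of -0.19. Foxo3, its relative, was at 2.39 and 2.83 FPKM, with a ratio of 0.846 (0.597 to 1.19), so Foxo1 exceeded it by a factor of 23.7 with probucol and 23.0 untreated. Of 17 genes of FOXO control and FOXO targets 15 passed, 5 lower and 10 higher, where 52.7% of all genes compared were higher. Their median was 0.10. Sgk1, a kinase that phosphorylates FOXO proteins and keeps them out of the nucleus, had the highest ratio, at 66.0 and 44.5 FPKM, 1.48 (1.37 to 1.61). Rictor and Pik3r1, named after their values were seen, were the other genes higher by at least 0.32, as were 17.8% of all genes compared. The autophagy gene Gabarapl1 was the 1 gene lower by as much, with 3.27 and 7.97 FPKM from an estimated 52 and 129 fragments. The FOXO motif GTAAACA was found on neither strand in the 15 windows of the 7 members that have one, and in 3.17% of all windows. A motif this rare is likely to be missing from 15 windows, so its absence tells nothing about control by FOXO1. Ccr7 and S1pr1 had no window.

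Tcf7 (chromosome 11, 52252371 to 52283014, minus strand) and Lef1 (chromosome 3, 131110471 to 131224356, plus strand) encode related factors that bind the same DNA motif and maintain T cell identity and self-renewal. Tcf7 was at 575 and 636 FPKM, 1.11-fold lower with probucol (1.08 to 1.13). Lef1 was at 186 FPKM in the probucol library and 216 FPKM in the untreated one, 1.17-fold lower (1.13 to 1.21). Both were thus lower, and Tcf7 exceeded Lef1 by a factor of 3.10 with probucol and 2.94 untreated. Of 16 partner genes 12 passed, 5 lower and 7 higher, where 52.7% of all genes compared were higher, with a median of 0.15. Ctnnb1, the gene of beta-catenin, was at 52.5 and 47.4 FPKM, with a ratio of 1.11 (1.03 to 1.19). The corepressor gene Tle1 had the highest ratio, 1.47 (1.23 to 1.77), at 8.95 and 6.07 FPKM, and Axin1, a scaffold of beta-catenin destruction, the lowest, 0.813 (0.751 to 0.881). Apc and Gsk3b, named after their values were seen, were also higher by at least 0.32, and no gene of this list was that much lower. The motif CTTTGAT, one form of the TCF/LEF site, was found in none of the 15 member windows on either strand, and in 3.21% of all windows. As with the FOXO motif, absence from so few windows is likely for any rare motif and tells nothing about control.

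Satb1 (chromosome 17, 51736187 to 51833290, minus strand), an organiser of chromatin in T cells, was at 72.3 FPKM in the probucol library and 73.8 FPKM in the untreated one. Its ratio of 0.981 had a counting interval that includes 1 (0.940 to 1.02), so counting error alone leaves its direction open. With 1 library a group, intervals without 1 do not settle the direction of the other members either. The log2 ratio of Satb1, -0.03, was 0.01 after rescaling to equal T cell marker sums. It was -0.16 and -0.17 under the 2 removals of trends described below. Bach2 (chromosome 4, 32238804 to 32586108, plus strand) encodes a repressor that holds back effector differentiation. It was the least abundant of the 9 genes and the only one higher with probucol, at 6.32 FPKM against 4.63 FPKM untreated, on about 524 and 386 fragments, a ratio of 1.37 (1.19 to 1.56). Its log2 ratio of 0.38 was among the highest 14% of the genes compared. Exons of Bach2os, a gene on the opposite strand, overlap those of Bach2. Bach2os was at 2.41 and 1.24 FPKM, and no stranded counting is named, so reads of the 2 genes cannot be told apart where they overlap. Annotated genes not listed in the tables also overlap exons of Lef1, Foxo1 and Satb1.

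Prdm1, which encodes BLIMP1 and is repressed by BACH2, was at 4.96 FPKM in the probucol library and 7.09 FPKM in the untreated one, 1.43-fold lower (1.18 to 1.73). The level of Bach2 was thus 1.27 times that of Prdm1 with probucol and 0.652 times untreated, so their order differed between the libraries. Both genes were at low levels. B cells also express Bach2, and B cell markers summed to 72.5 FPKM with probucol and 27.9 FPKM untreated. After the trend on length described below was removed, the log2 ratio of Bach2 was 0.18. The part of B cells and of length in this order was not tested. Bach1, the relative of Bach2 found in most tissues, was at 1.92 and 1.77 FPKM, with a ratio of 1.08 (0.819 to 1.44). Of 13 relatives and partners of BACH and SATB factors 11 passed, 3 lower and 8 higher, where 52.7% of all genes compared were higher. Their median was 0.17. Prdm1 had the lowest ratio, and Smarca5, a chromatin remodelling ATPase, the highest, at 47.4 and 34.6 FPKM; these 2 were the ones past the smaller limit.

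**Figure D3:**
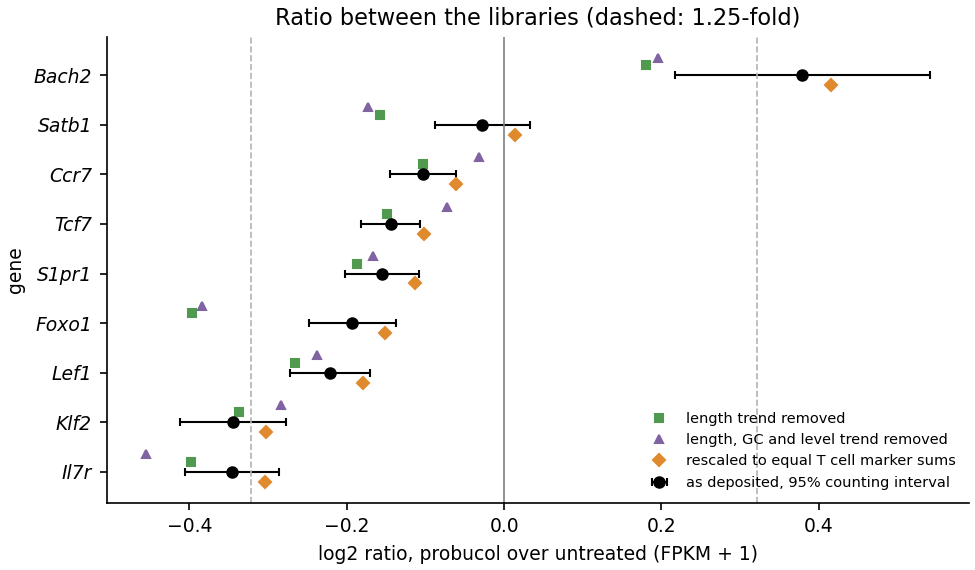
Log2 ratio of probucol over untreated (horizontal, on FPKM + 1) of each of the 9 genes. Black points are the deposited values with 95% counting intervals, coloured points the values after 3 other treatments of the data, and dashed lines mark the smaller limit. Il7r and Klf2 lie furthest to the left at -0.35 and -0.34, Satb1 lies next to 0, and Bach2 lies to the right at 0.38.

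Transcript length went along with the ratio across all genes. Of the 985 compared genes under 1000 bp, 65.4% were lower with probucol, and of the 869 genes of 6000 bp or more, 25.1% were lower, with medians of -0.12 and 0.19. Bach2, with a transcript of 8493 bp, had a ratio in the direction of the long genes, while Foxo1, with 8665 bp, and Satb1 were lower although most genes of their length were higher. After the trend on length was removed, an alternative chosen after the data were seen, Bach2 stood at 0.18, short of the smaller limit, and Foxo1 at -0.40, past it. Klf2 and Il7r were then at -0.34 and -0.40, the median of the 9 genes was -0.19, and 8 were still below 0. With GC content and level taken out as well, Klf2 was at -0.28, short of the limit, and Foxo1 at -0.38, past it. What the length trend comes from was not tested.

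**Figure D4:**
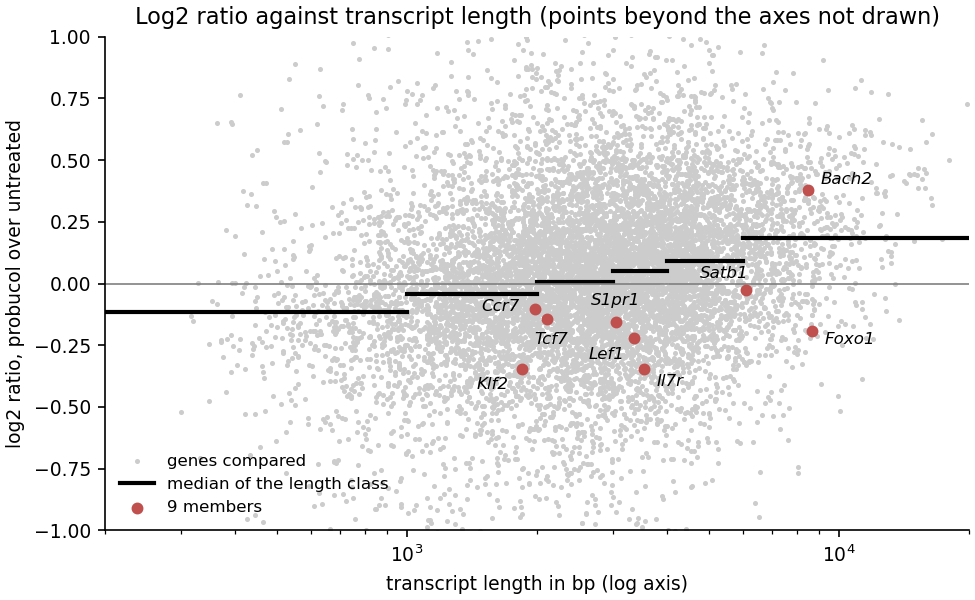
Log2 ratio of probucol over untreated (vertical) against transcript length in bp (horizontal, log axis) for the genes compared in grey and the 9 members in red. Black bars are the medians of 6 length classes, which go from -0.12 for the shortest to 0.19 for the longest, and Foxo1 lies below the bar of its class while Bach2 lies above it.

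The other quiescence genes were evenly divided. All 26 passed the minimum, and 13 were lower and 13 higher, with a median log2 ratio of 0.00373. Lower by at least 0.32 were Pik3ip1, an inhibitor of PI3 kinase, at 76.8 and 103 FPKM, and Sesn1, and higher by at least 0.32 were Sesn3, with a ratio of 1.32 (1.20 to 1.46), and Runx1. Sesn1 and Runx1 were named after their values were seen. Foxp1, a factor that enforces T cell quiescence, was at 43.3 and 36.3 FPKM, with a ratio of 1.19 (1.13 to 1.26). Thus 8 of the 9 members were lower, against 13 of 26 genes of this list. Among all genes compared 47.3% were lower, and among those at a mean of 50 FPKM or more 59.1%. Of the 9 members 8 reach that level, and many of the 26 genes do not. Of those that do, Klf3, Btg2, Slfn2, Ets1, Pik3ip1, Vsir, Dapl1 and Txk were lower and Btg1, Elf1, Igfbp4 and Rflnb higher. They are named here after their values were seen. Members and lists were chosen with earlier results of these data known, so the contrast is a description only.

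Most of the listed genes of antigen-experienced T cells were also lower with probucol. Of 16 genes 13 were lower and 3 higher, where 47.3% of all genes compared were lower. By at least 0.32, 10 were lower (14.1% of all genes compared), and 3 were at least 2-fold lower (1.98% of all). The median log2 ratio of the 16 genes was -0.41. The lowest ratio was that of the chemokine gene Ccl5, at 131 and 459 FPKM, and the highest that of Id2, an inhibitor of DNA binding kept on in effector cells, at 342 and 298 FPKM. Cd44, the usual surface marker of experienced cells, was at 28.0 and 27.3 FPKM. The 9 members summed to 1.07 times the experienced genes with probucol and 0.798 times untreated. The experienced sum, 1812 and 2749.6 FPKM, had a lower ratio (0.659) than the member sum (0.887), while Cd44 had a ratio of 1.03 (0.917 to 1.15). Between the same libraries, the natural killer markers that passed had a median log2 ratio of -0.73, with 4 of 6 lower. Ncr1 and Klre1, natural killer markers below the minimum, were higher with probucol. B cell markers summed to 72.5 and 27.9 FPKM and erythroid markers to 227 and 889 FPKM. The part of these other cells in the lower levels of the experienced genes was not tested.

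**Figure D5:**
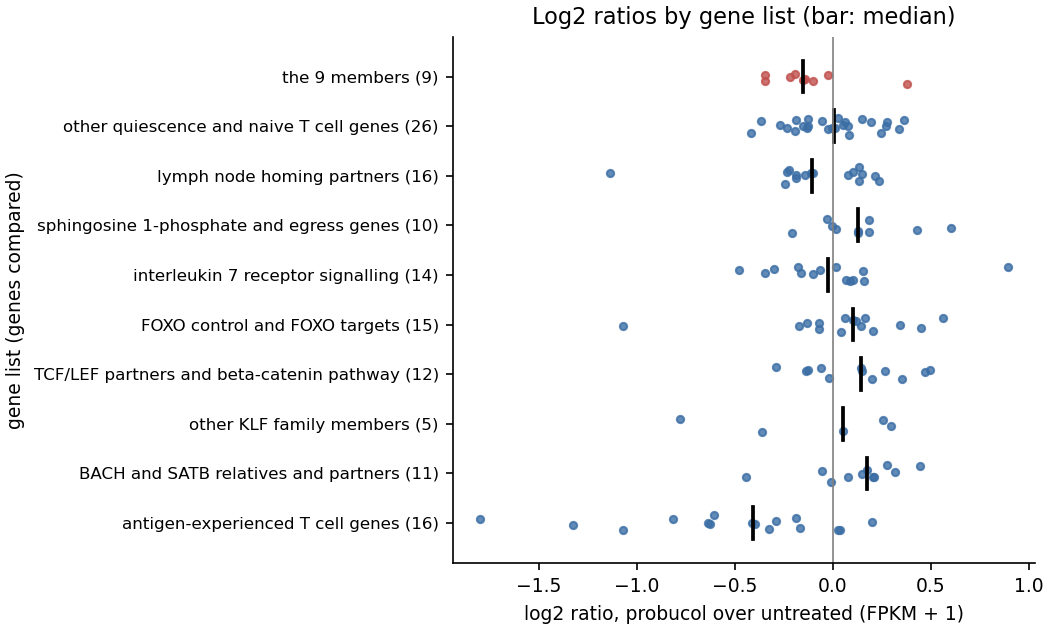
Log2 ratio of probucol over untreated (horizontal, on FPKM + 1) of every gene compared in 10 gene lists, with a black bar at each list's median and the 9 members in red. The median is -0.15 for the members, between -0.11 and 0.17 for the 8 lists of related genes and -0.41 for antigen-experienced genes.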

How the data were processed

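Per the file headers, the authors deposited FPKM values, 1 for each symbol in each library. The submitters' processing notes name Cuffdiff 2.2.1, TopHat2 2.1.1, Bowtie2 and mm10 but not what each was used for. Annotation and filters: not given in the sources used here. Per the labels' protocols, cDNA was made with a SMART-Seq HT kit and libraries with a Nextera kit; unique molecular identifiers are not mentioned, so PCR copies are counted.

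Log2 ratios were taken on FPKM + 1 for genes with a mean of at least 1 FPKM, and counted at limits of 0.32 (a fold of 5 to 4) and 2-fold, with no test. Fragments were estimated from steps in low FPKM values: 1 fragment on 1 kb equalled 0.0998 FPKM (probucol) or 0.0992 FPKM (untreated) once 220 bp were taken off transcript lengths (GENCODE M21, RefSeq-linked transcripts). This put 76.7% and 76.0% of low values within 0.1 of a whole fragment, against 20% by chance. Fold intervals are Clopper-Pearson, and level intervals exact Poisson. The procedure was tested on simulated data. For the intervals, the simulated counts held counting error only, so this test cannot show how well they cover real libraries. Promoter windows are RefSeq's (GRCm38.p6).

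The 9 members and all lists were chosen with earlier results of these data known. Named genes were the members, 18 fixed partners (1 is not reported here), and the highest and lowest ratio of each of 9 lists; others are said to be named after their values were seen. Of the listed symbols 5 were matched through a synonym and 1 (Ahsp) was not matched. Python 3.11.15, scipy 1.17.1 and statsmodels 0.14.6 were used.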

Additional observations from a re-analysis of the deposited data

How the results depend on the processing

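Under 10 alternatives (pseudocounts 0.1 and 5, equal sums, centring on the median gene, equal T cell marker sums, no filter, a mean of at least 10 FPKM, the mean for the median, and 2 removals of trends chosen after the data were seen), the median of the 9 genes stayed between -0.19 and -0.11. The count of lower genes was 8, except 7 with equal T cell marker sums, where Satb1 was at 0.0136. The count lower by at least 0.32 was 1 with equal sums (Il7r at -0.323, while Klf2 at -0.321 was just short of the exact limit, the log2 of 5/4), 0 with equal T cell marker sums and 3 with the length trend removed. The count higher by at least 0.32 was 0 with pseudocount 5, with a mean of at least 10 FPKM (which leaves Bach2 out), and with either trend removed. With the trend on length, GC content and level removed, the count was again 2, but of Il7r (-0.46) and Foxo1 (-0.38), with Klf2 at -0.28 below the limit; Ccr7 was at -0.03, Tcf7 at -0.07 and Satb1 at -0.17. Ordered by estimated fragments, 35 of 36 pairs agreed between the libraries. No paired analysis was possible because each group has 1 library, and none could be left out. Estimated fragments per member ranged from 386 to 12081, and the spread between replicates was not measured. Over all genes, 1500 were lower and 1898 higher by at least 0.32, against 870 and 990 with pseudocount 5, 2916 and 2467 with no filter, and 629 and 782 at a mean of at least 10 FPKM.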
